A study of Homo sapiens with 16 samples.

Results

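CAMKV, NPW, BZW2 and TERT, together with MYC itself, had the largest fall in mRNA level from high to medium MYC in the control cells, among genes with a mean of 50 normalized counts or more whose groups did not overlap. They are 4 of the 58051 gene identifiers in the deposited table, and all 4 passed the limit for testing, a mean over the 16 libraries of 10 normalized counts or more, as did 13765 genes in all. They were chosen by their normalized counts at medium against high MYC in the control libraries, so that comparison is given here as a description, without a test. RNA was sequenced from P493-6, an immortalised human B cell line with a MYC transgene that doxycycline represses and an EBNA2 protein that works only with estrogen. Cells at high MYC grew in ordinary medium, and cells at medium MYC first received 1 µM beta-estradiol together with 0.1 µg/mL doxycycline for 24 h. At each MYC level, 4 libraries came from cells given IMP1088 at 100 nM, which blocks the N-myristoyltransferases, and 4 from cells given its solvent DMSO, and the titles carry a time of 24 h. The labels do not say whether the replicates came from separate cultures, so the p-values measure only the spread between these samples. The effect of the MYC level cannot be told apart from that of doxycycline and beta-estradiol, nor can reads of the MYC transgene be told apart from those of the cells' own MYC gene.

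MYC is a transcription factor that pairs with MAX and binds DNA at E-boxes, of which CACGTG is the classical form, and it raises genes of ribosome production, metabolism and growth. TERT encodes the catalytic reverse transcriptase of telomerase, with which many immortal cells keep their telomeres, and it is a textbook MYC target. BZW2 encodes a mimic of the translation factor eIF5 that acts on the choice of start codons. CAMKV encodes a calmodulin-binding pseudokinase related to the calmodulin-dependent kinases and known from neurons, and NPW encodes the precursor of neuropeptide W, a ligand of G protein-coupled receptors.

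Positions follow GENCODE release 29 on GRCh38. CAMKV (ENSG00000164076) lies on the minus strand of chromosome 3 from 49857988 to 49870222. NPW (ENSG00000183971) lies on the plus strand of chromosome 16 from 2009926 to 2020755. BZW2 (ENSG00000136261) lies on the plus strand of chromosome 7 from 16646131 to 16706523, and 139 of its 3662 exon bases overlap an antisense gene that was listed at 0 in all 16 libraries. TERT (ENSG00000164362) lies on the minus strand of chromosome 5 from 1253147 to 1295069. No exon of CAMKV, NPW or TERT overlaps that of another annotated gene, and none of the 4 genes has a pseudogene named after it in that annotation.

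The windows from 250 bases before to 50 after the RefSeq start of each gene (GRCh38.p14) were searched on both strands for CACGTG and for the wider pattern CANNTG, of which the first is a special case. For NPW this window (chr16:2019535-2019834) lies inside the GENCODE gene and not at its start at 2009926, where no window was searched. The classical letters were present in the window of TERT, 163 bases before the start, and in none of the other 3, against 7.26% of all 35116 windows of this length. All 4 windows held at least 1 CANNTG, as did 68.7% of all windows. The stretches from 250 to 101 bases before the start of TERT (chr5:1295169-1295318, minus strand) and BZW2 (chr7:16645931-16646080, plus strand) are shown because the first holds the classical E-box letters and the second, for comparison, only other matches of the wider pattern. Capitals mark each match of the wider pattern, and no annotated exon of either gene lies in its stretch.
TERT: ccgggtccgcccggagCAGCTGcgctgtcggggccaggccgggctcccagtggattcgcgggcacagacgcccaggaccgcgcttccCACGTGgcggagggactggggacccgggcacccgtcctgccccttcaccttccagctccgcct
BZW2: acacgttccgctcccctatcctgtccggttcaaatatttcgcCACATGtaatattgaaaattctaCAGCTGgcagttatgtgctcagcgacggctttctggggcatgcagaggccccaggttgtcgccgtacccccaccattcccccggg
These letters describe the windows, and binding of MYC was not measured.

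Library depth ran from 8755296 to 13858534 reads, and each library held reads of 18899 to 21081 genes. The B cell markers MS4A1, CD79A, CD79B, PAX5, CD22, CD40 and EBF1 were above 3 reads in every group. Their summed level ran from 24391 to 24571 normalized counts in the high MYC controls, from 19899 to 20792 with the inhibitor at high MYC, from 40523 to 41212 in the medium MYC controls and from 35938 to 37204 with the inhibitor at medium MYC. CAMKV and NPW are better known from neurons. Of 6 neuronal markers GAP43 and SNAP25 were at 0 in all groups, while SYP passed 3 reads in some library of every group and SYN1 did so in both medium MYC groups. The summed level of the list ran from 8.94 to 18.1 at high MYC and from 37.3 to 66.8 at medium MYC. Markers of T cells summed to between 55.1 and 240.4 normalized counts and markers of myeloid cells to between 41.4 and 84.6. CD3D, CD8A and MPO had 3 reads or fewer in every library. In contrast, the group means ran from 32.3 to 59.6 normalized counts for CD3E and from 12.5 to 28.7 for CD3G. TRAC and LYZ passed 3 reads in some library of every group. The part of these marker levels in the results below was not tested.

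TERT mRNA measured 530.2, 494, 466 and 486 normalized counts in the 4 high MYC controls and 439, 473, 500.0 and 437 with the inhibitor. At medium MYC it measured 27.1, 17.1, 16.6 and 17.2 in the controls and 24.5, 18.9, 27.2 and 20.2 with the inhibitor. Every library at high MYC stood far above every library at medium MYC, while inhibitor and control libraries overlapped at both levels. A normalized count is a read count divided by the library's size factor, so it gives a share of the RNA sequenced: fewer cells with the mRNA and less of it per cell cannot be told apart.

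CAMKV mRNA measured 814, 802, 821 and 885 normalized counts in the high MYC controls and 785, 806, 812 and 804 with the inhibitor. At medium MYC the values were 15.6, 12.0, 10.5 and 12.3 in the controls and 8.16, 18.9, 16.7 and 15.1 with the inhibitor. Of the high MYC libraries with inhibitor, 3 lay within the range of their controls and 1 below it, and at medium MYC the inhibitor libraries held the lowest value as well as the highest.

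BZW2 mRNA measured 316, 302, 327 and 338 normalized counts in the high MYC controls against 324, 308, 332 and 345 with the inhibitor. The medium MYC controls gave 9.39, 11.1, 15.8 and 10.7, and the medium MYC libraries with inhibitor 10.5, 9.93, 10.4 and 14.1. Of the 4 genes it had the nearest group means with and without the inhibitor, at both MYC levels.

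NPW mRNA was the least abundant, with 224, 171, 125 and 131 normalized counts in the high MYC controls and 145, 122, 158 and 153 with the inhibitor. At medium MYC it gave 5.22, 2.57, 4.38 and 4.10 in the controls and 2.33, 8.94, 3.13 and 8.07 with the inhibitor. The medium MYC values rest on 18 reads over the 4 controls (95% exact Poisson interval 10.7 to 28.4) and 22 reads over the 4 inhibitor libraries (13.8 to 33.3), and the first high MYC control was the highest of the 16 libraries. The corresponding sums at medium MYC in controls and inhibitor libraries were 86 and 86 reads for TERT, 56 and 57 for CAMKV and 53 and 43 for BZW2. Reads carried no molecular identifiers, so such intervals cover counting error only.

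**Figure D1:**
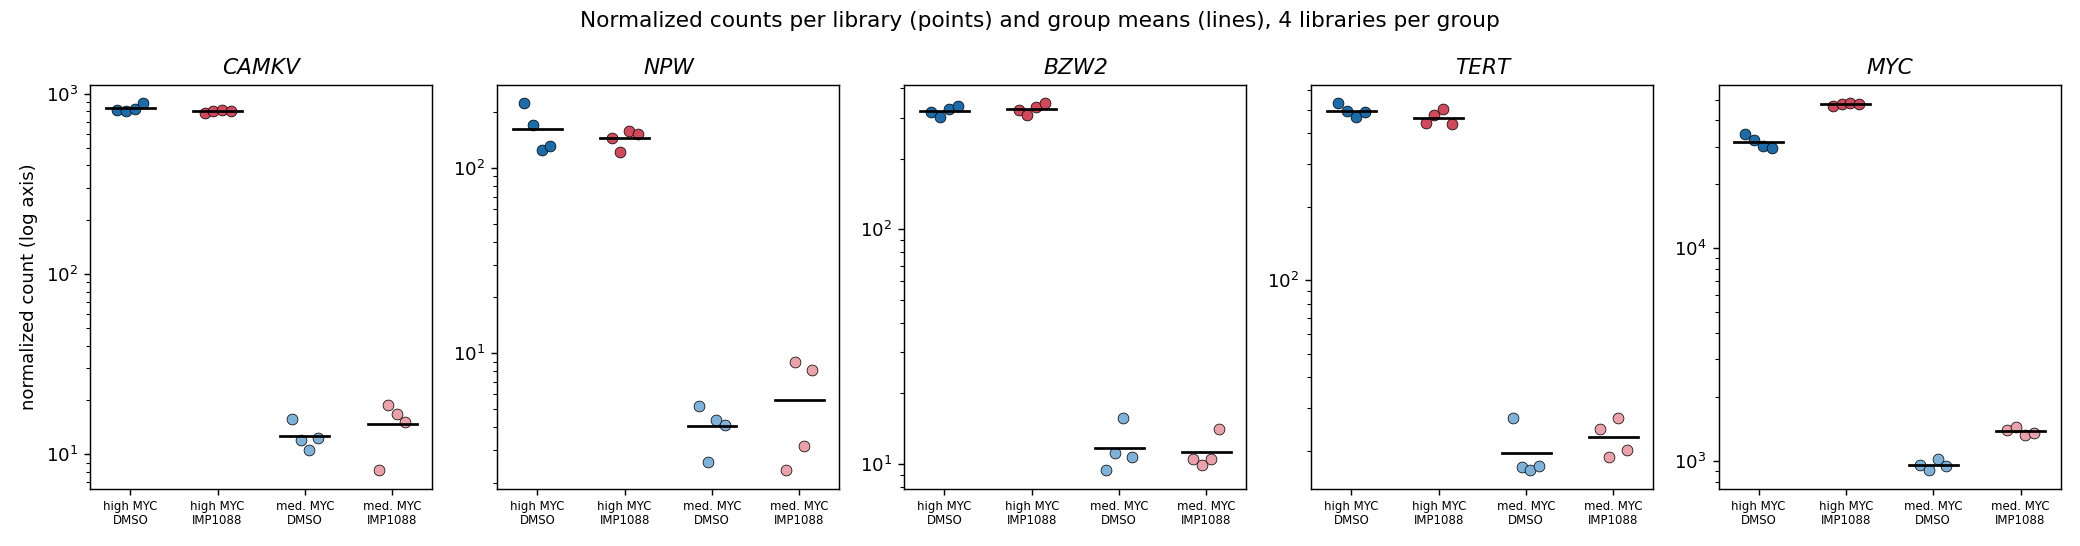
Normalized counts of CAMKV, NPW, BZW2, TERT and MYC in each library (points, logarithmic axis with its own range in each panel) and group means (lines) for the 4 groups of 4 libraries. The 4 genes stand high at high MYC and low at medium MYC with or without IMP1088, whereas MYC itself is higher with IMP1088 at both levels.

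Per kilobase of annotated exon, CAMKV had the highest level of the 4 in the high MYC controls, at 213 ± 9.55 normalized counts per kilobase (SD, n = 4). NPW followed at 139 ± 39.1, TERT at 107 ± 5.85 and BZW2 at 87.6 ± 4.12. The libraries of NPW and TERT overlapped on this scale and those of the other neighbours in the order did not. At medium MYC the 4 genes lay together, at 4.24 ± 1.10 for TERT, 3.48 ± 0.946 for NPW, 3.23 ± 0.557 for CAMKV and 3.20 ± 0.759 for BZW2, and none differed from its neighbour beyond the spread between replicates. The order at high MYC was thus not visible at medium MYC. MYC itself stood at 10546 ± 710 per kilobase in the high MYC controls and 319 ± 16.2 in the medium MYC controls.

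In the control libraries that chose the genes, the mean level at high MYC was 65.9 times that at medium MYC for CAMKV, 39.96 times for NPW, 27.3 times for BZW2 and 25.3 times for TERT, and 33.0 times for MYC mRNA. On the scale of log2(normalized count + 1), which understates the change of low genes, these differences were -5.95, -5.00, -4.68 and -4.62, and -5.04 for MYC. In this comparison 76.2% of all tested genes passed the threshold of an adjusted p of 0.05 in limma, and the groups did not overlap for 69.2%. Just outside the choice was DDN, which encodes the cytoskeletal protein dendrin, at -4.58, next to TERT at -4.62 just inside. SH2D5 at -4.27, PLD6 at -4.24, TUBB3 (a neuronal beta-tubulin) at -4.22 and MATK (a kinase that restrains Src family kinases) at -4.21 came after it. KCNJ12 at -4.27 has a near-identical copy in the genome and is uncertain, and exons of DDN, PLD6 and TUBB3 overlap those of another gene.

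The same genes were also lower at medium MYC in the 8 libraries with the inhibitor, whose difference between MYC levels the choice did not use. The choice did require a mean of 50 normalized counts over all libraries, which these genes reached through their high MYC libraries alone. The p-values below therefore do not come from a fully independent comparison. CAMKV fell by 5.73 (log2, SE 0.18, limma adjusted p = 1.94e-14), from a mean of 802 ± 11.6 to 14.7 ± 4.64 normalized counts (SD, n = 4 each). BZW2 fell by 4.76 (SE 0.14, adjusted p = 7.60e-15), from 327 ± 15.4 to 11.2 ± 1.93. TERT fell by 4.30 (SE 0.12, adjusted p = 5.15e-15), from 462 ± 30.2 to 22.7 ± 3.83. These 3 genes were thus called lower, against 38% of all tested genes, while 77.9% were called in either direction. Their medium and high MYC libraries did not overlap, as was so for 72.6% of all tested genes. NPW went from 144 ± 15.9 to 5.62 ± 3.37, a log2 difference of -4.61. It reached the limit for testing through its high MYC libraries alone, with means under 10 at medium MYC, so it had to differ, and its values are given as a description without a test.

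Ranked from the largest fall among the 13765 tested genes, CAMKV came first with the inhibitor present, MYC second, BZW2 in place 4, NPW in place 7 and TERT in place 10. In the controls the places had been 1 for CAMKV, 3 for NPW, 5 for BZW2 and 6 for TERT, with MYC again second. The ratios of the means at high over medium MYC with the inhibitor were 54.5 for CAMKV, 29.1 for BZW2, 25.7 for NPW, 20.4 for TERT and 34.4 for MYC.

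**Figure D2:**
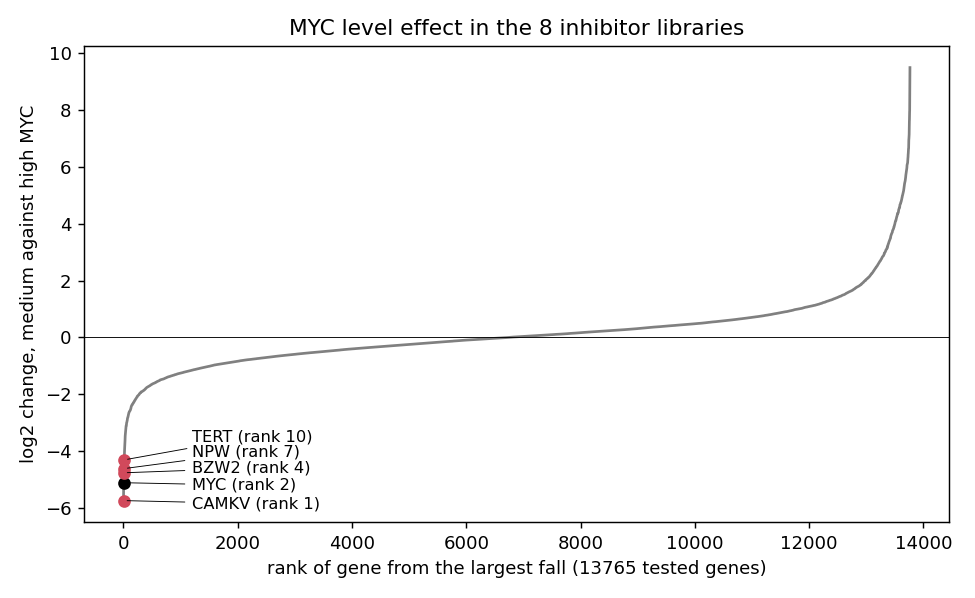
Log2 change at medium against high MYC in the 8 libraries with IMP1088 (vertical axis) for all 13765 tested genes, ordered from the largest fall (horizontal axis, rank). CAMKV, BZW2, NPW and TERT (red) stand at ranks 1, 4, 7 and 10 beside MYC (black) at rank 2.

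With the inhibitor MYC mRNA was higher at both MYC levels, and none of the 4 genes passed the test at either. At high MYC the MYC level was 34375, 32276, 30251 and 29693 normalized counts in the controls and 46843, 47645, 48049 and 47631 with the inhibitor. At medium MYC it was 959.6, 904, 1022 and 949 in the controls and 1400.4, 1444, 1328 and 1356 with the inhibitor. All inhibitor libraries stood above all control libraries at both levels. MYC rose by 0.59 on the log2 scale at high MYC (95% interval 0.50 to 0.67, limma adjusted p = 7.24e-10), or 1.502 times, and by 0.53 at medium MYC (0.44 to 0.61, adjusted p = 2.74e-09), or 1.44 times. These comparisons share their control libraries with the one that chose the genes.

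At high MYC none of the 4 genes was called in limma, against 26.8% of all tested genes, and for none were inhibitor and control libraries apart, against 26.7%. The log2 change was -0.05 for CAMKV (95% interval -0.39 to 0.29, limma adjusted p = 0.864). It was 0.03 for BZW2 (-0.26 to 0.32, adjusted p = 0.911), -0.10 for TERT (-0.38 to 0.19, adjusted p = 0.651) and -0.13 for NPW (-0.75 to 0.48, adjusted p = 0.785). The upper ends of all 4 intervals lay under the lower end of 0.50 for MYC. These intervals come from a spread shared with the medium MYC libraries, where the genes have few reads. In a fit of the 8 high MYC libraries alone they narrowed to -0.13 to 0.03 for CAMKV, -0.09 to 0.15 for BZW2, -0.22 to 0.03 for TERT and -0.52 to 0.25 for NPW, and again 0 of 4 were called.

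At medium MYC none of the 4 genes was called either, against 26.3% of all tested genes, and inhibitor and control libraries overlapped for all 4, against 27.9% without overlap. The log2 change was 0.16 for CAMKV (-0.18 to 0.51, limma adjusted p = 0.520), 0.22 for TERT (-0.06 to 0.50, adjusted p = 0.257), 0.26 for NPW (-0.36 to 0.87, adjusted p = 0.573) and -0.05 for BZW2 (-0.34 to 0.25, adjusted p = 0.854). NPW reached the limit for testing through its high MYC libraries alone. At medium MYC it had 3 to 5 reads per control library and 2 to 9 per inhibitor library, so tests that use them decide little. The intervals of CAMKV, TERT and NPW passed the 0.44 that is the lower end for MYC, and that of BZW2 ended below it, while the 0.53 found for MYC itself lay inside the interval of NPW alone. Leaving out a single library from the fit over both MYC levels changed 2 of its calls. Without the first medium MYC inhibitor library, where CAMKV was lowest, CAMKV rose by 0.40 (limma adjusted p = 0.00951), and without the first medium MYC control, where TERT was highest among the controls, TERT rose by 0.38 (adjusted p = 0.0175).

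The difference in response between high and medium MYC was tested itself, and 0 of 4 genes passed in limma, against 8.63% of all tested genes. It was -0.32 for TERT (95% interval -0.72 to 0.08, limma adjusted p = 0.367), -0.21 for CAMKV (-0.70 to 0.27, adjusted p = 0.671), -0.39 for NPW (-1.26 to 0.47, adjusted p = 0.657) and 0.07 for BZW2 (-0.34 to 0.49, adjusted p = 0.885). For MYC it was 0.06 (-0.06 to 0.18, adjusted p = 0.605). This difference equals the change from high to medium MYC in the controls, which chose the 4 genes, minus that with the inhibitor. The choice thus enters it, and its p-values do not come from an independent comparison. In all 3 comparisons with the inhibitor, 0 of the 4 genes had an unadjusted p under 0.05 in limma, and edgeR and DESeq2 on the recovered reads called 0 of them as well.

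**Figure D3:**
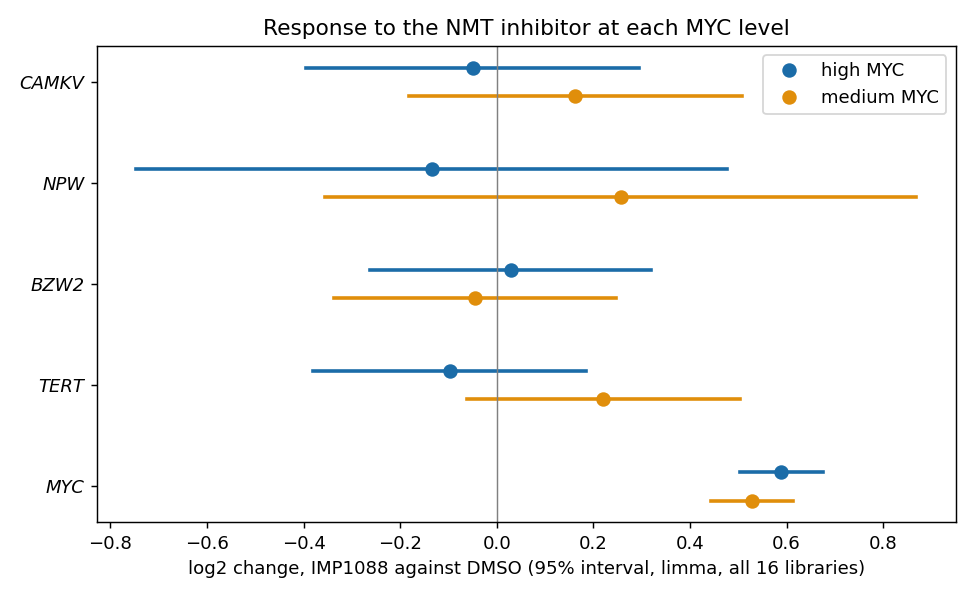
Log2 change with IMP1088 against DMSO (horizontal axis, points with 95% intervals from limma over all 16 libraries) for each gene at high MYC (blue) and medium MYC (orange). The intervals of CAMKV, NPW, BZW2 and TERT include 0 at both levels, and those of MYC run from 0.50 to 0.67 and from 0.44 to 0.61.

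Set against MYC mRNA in the same library, the 4 genes were lower with the inhibitor at high MYC. CAMKV amounted to 23.7, 24.8, 27.1 and 29.8 normalized counts per 1000 of MYC in the high MYC controls and to 16.8, 16.9, 16.9 and 16.9 with the inhibitor. TERT amounted to 15.4, 15.3, 15.4 and 16.4 in the controls and to 9.37, 9.92, 10.4 and 9.17 with the inhibitor. No inhibitor library reached its controls for either gene. BZW2 went from 9.20, 9.36, 10.8 and 11.4 in the controls to 6.91, 6.47, 6.90 and 7.25, and NPW from 6.51, 5.29, 4.12 and 4.40 to 3.10, 2.56, 3.29 and 3.21.

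As a log2 difference between gene and MYC, the change with the inhibitor at high MYC was -0.72 for NPW, -0.69 for TERT, -0.64 for CAMKV and -0.56 for BZW2. Each had a two-sided exact permutation p of 0.0286, the smallest that 4 against 4 libraries allow, and 0.0571 after Benjamini-Hochberg adjustment over the 8 tests of this kind, which misses 0.05. With 4 of the 8 tests at that smallest p, the adjusted value did not depend on the size of the differences. All 4 genes share the same MYC values, so these are not independent measurements, and the rise of MYC itself enters each of them. The controls in these tests, here and at medium MYC below, are also the libraries that chose the genes.

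At medium MYC the groups overlapped for every gene. BZW2 went from 9.78, 12.3, 15.4 and 11.2 per 1000 of MYC in the controls to 7.49, 6.88, 7.87 and 10.4 with the inhibitor, a log2 difference of -0.57 (two-sided exact permutation p = 0.0571, adjusted 0.0914). CAMKV changed from 16.3, 13.3, 10.3 and 13.0 to 5.82, 13.1, 12.6 and 11.2, a difference of -0.37 (exact permutation p = 0.257, adjusted 0.294). TERT gave 28.3, 18.9, 16.3 and 18.2 in the controls and 17.5, 13.1, 20.5 and 14.9 with the inhibitor, a difference of -0.31 (exact permutation p = 0.229, adjusted 0.294). For NPW, with 1.66 to 6.19 with the inhibitor and 2.84 to 5.43 in the controls, the difference was -0.27 (exact permutation p = 0.6, adjusted 0.6).

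**Figure D4:**
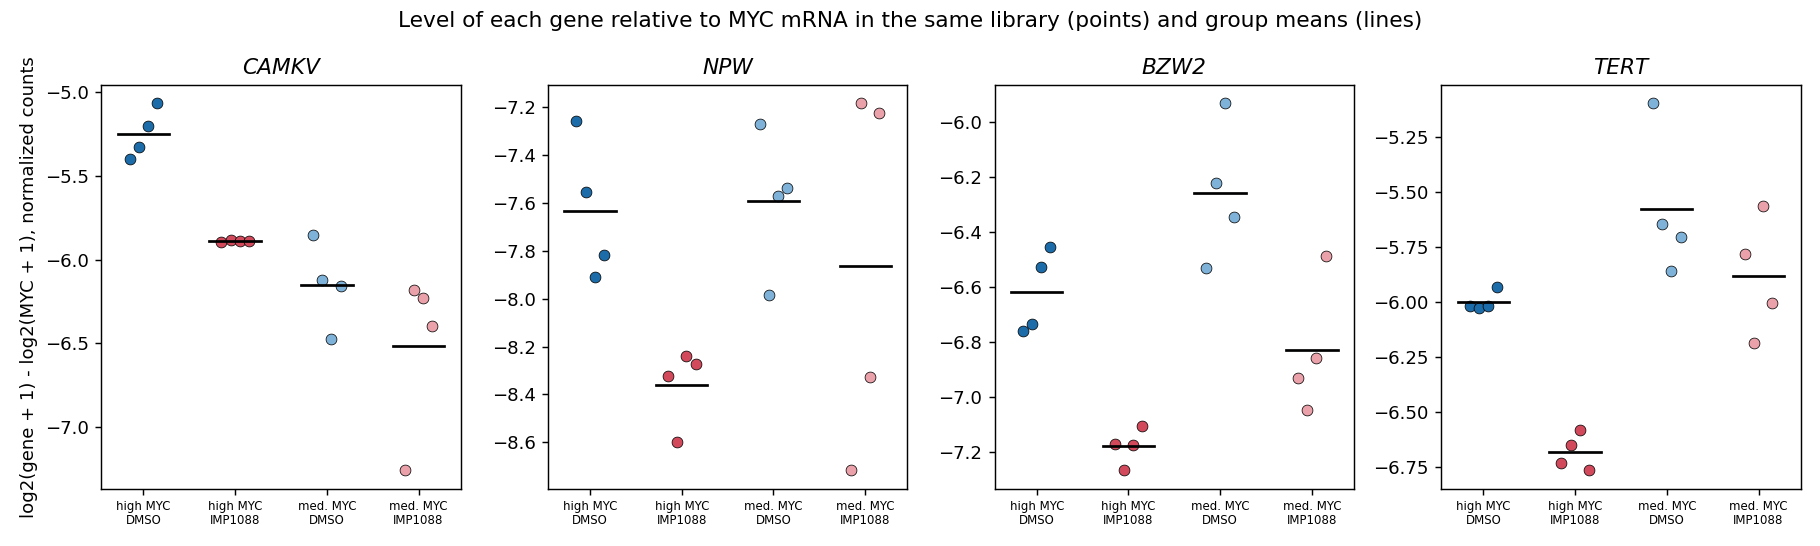
Level of each gene relative to MYC mRNA in the same library, as log2(gene + 1) minus log2(MYC + 1) of the normalized counts (vertical axis, own range in each panel), with group means as lines. At high MYC every IMP1088 library lies below every DMSO library for all 4 genes, by 0.56 to 0.72 on average, and at medium MYC the groups overlap.

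The genes whose pattern over the 16 libraries was most like that of each of the 4 were found by the root mean square of the log2 differences after each gene was centred on its own mean, among 10902 genes whose mean was 50 or more. For TERT the nearest was DDN at 0.21, then TUBB3 at 0.27 and MATK at 0.34. For BZW2 they were DDN at 0.28, MATK at 0.31 and TUBB3 at 0.32, and for NPW DDN at 0.40, BZW2 at 0.44 and MYC at 0.49. For CAMKV they were MYC at 0.53, NPW at 0.62 and BZW2 at 0.65. The median over all genes lay between 2.25 and 2.94. DDN, the nearest to 3 of the 4, responded to the inhibitor by 0.07 at high and 0.10 at medium MYC, without being called. All these values rest on the same 16 libraries and mostly on the step between the MYC levels.

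Other genes of each pathway were taken from lists chosen with earlier results of these data known, and counts are given beside the median and the share of all tested genes. At medium against high MYC in the controls 37.3% of all tested genes were called lower and 38.9% higher, and with the inhibitor present 38% and 39.9%. The inhibitor against DMSO gave 16.3% called lower and 10.5% higher at high MYC, and 14.6% and 11.7% at medium MYC. For the difference in response 5.33% were called lower and 3.31% higher. Those with exons that overlap another gene (TERC, NHP2, CALM3, BZW1, MXI1, MNT, MAX, MXD1, GNL3, SHMT2, CCND2 and NPB) are uncertain, since whether strand was used in counting is not given in the sources used here. Of 23 other genes of telomerase and telomeres, 12 were called lower and 3 higher at medium MYC in the controls (median log2 change -0.23 against 0.02 over all genes), and 12 lower and 5 higher with the inhibitor present (median -0.24 against 0.02). NHP2 and GAR1, proteins of the H/ACA particles to which the telomerase RNA belongs, fell by 1.65 and 1.55 in the controls. NAF1, which serves the assembly of these particles, fell by 1.55. TINF2, a shelterin subunit at telomeres, rose by 1.07. With the inhibitor 2 of the 23 were called higher and 3 lower at high MYC, or 5 in all against 26.8% of all tested genes. The telomerase RNA gene TERC rose by 0.33 and NAF1 by 0.19, and NOP10, another H/ACA protein, fell by 0.24. At medium MYC 1 was called in each direction, against 26.3% of all tested genes, SHQ1 at 0.22 and TERF1 at -0.20. No gene of the list was called for the difference in response in limma.

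Among the calmodulin-dependent kinases and calmodulins, 9 of 16 genes were tested. In the controls 4 were called lower and 4 higher at medium MYC (median -0.03). CAMKK1 and CAMKK2, the kinases that activate CaM kinases, changed by -2.59 and -2.19, CAMK4 fell by 0.96, and the calmodulin gene CALM3 rose by 1.35. With the inhibitor 5 were called lower and 1 higher at high MYC (26.8% of all tested genes in either direction), and 4 lower and 1 higher at medium MYC (26.3% of all tested genes), including CAMK2D, a CaM kinase II subunit, at -0.20 and -0.30. CAMK4 rose by 0.21 at high MYC, from 759 ± 40.9 to 875 ± 17.4 normalized counts (SD, n = 4 each).

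Among 18 factors of start codon choice, 11 were called lower and 4 higher at medium MYC in the controls (median -0.32). BZW1, the paralog of BZW2, rose by 0.44, from 2213 ± 180.0 to 3005 ± 125 normalized counts, whereas BZW2 was 27.3 times lower. With the inhibitor present BZW1 rose by 0.47 at medium against high MYC. Its response to the inhibitor was 0.02 at high and 0.04 at medium MYC and was not called. Of the 18, the inhibitor gave 4 called higher and 1 lower at high MYC and 4 higher and 0 lower at medium MYC in limma, near the shares of 26.8% and 26.3% of all tested genes. EIF1, the factor that makes start codon choice strict, rose by 0.12 and 0.30, and EIF5, which BZW2 mimics, rose by 0.10 and 0.25. For both, the rise was smaller at high MYC, with a difference in response, high minus medium, of -0.18 for EIF1 (limma adjusted p = 0.00391) and -0.15 for EIF5 (adjusted p = 0.0392).

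The partner genes of neuropeptide W were near the limit of detection. NPB, the other ligand of its receptors, had at most 10 reads in any library, and the receptor gene NPBWR2 had 0 reads in all 8 high MYC libraries and at most 7 in any medium MYC library. Neither was tested, and the receptor gene NPBWR1 was not analysed here.

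In the MYC network, 11 of 13 genes were tested, and in the controls 7 were called lower and 4 higher at medium MYC, MYC included. MAX, the partner of MYC, fell by 0.68, and the MYC antagonists MXI1 and MNT fell by 2.28 and 1.30, while the antagonist MXD1 rose by 0.76. With the inhibitor 5 were called higher and 1 lower at high MYC, beside 26.8% of all tested genes, and 3 higher and 1 lower at medium MYC, beside 26.3%. MAX was not called at either level, with 0.02 and -0.05.

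Of 40 textbook MYC targets that do not include the 4 genes, 38 were called lower and 1 higher at medium MYC in the controls, with a median of -1.45. SRM, the spermidine synthase, and RRP9, a ribosome assembly factor, changed by -2.22 and -2.19, and CCND2, a cyclin, rose by 1.25. With the inhibitor, 9 were called higher and 3 lower at high MYC (median 0.05 against -0.02 over all genes), or 17 and 2 after quantile normalization. The first count is near the 26.8% of all tested genes called there. At medium MYC 15 were called higher and 4 lower (median 0.07 against -0.01), beside 26.3% of all tested genes. The nucleolar gene GNL3 rose by 0.17 and 0.38, and the lactate dehydrogenase gene LDHA fell by 0.25 and 0.67. For the difference in response 5 were called lower and 1 higher, with -0.42 for the serine hydroxymethyltransferase gene SHMT2 and 0.42 for LDHA.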

How the data were processed

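RNA-seq libraries of P493-6 cells were grouped by the MYC level and treatment in their labels, 4 libraries in each of 4 groups. The authors deposited normalized counts, a non-negative signal per Ensembl gene. The submitters' processing notes name STAR 2.5.2a, RSEM 1.2.31, DESeq2 1.16.1 and GRCh38. The gene annotation and the use of strand are not given in the sources used here. Every value was a whole number of reads divided by the library's size factor (100% whole within 0.01, factors 0.858 to 1.33), so reads were recovered, and libraries held 8755296 to 13858534. Replicate pairs differed by more than sampling noise (chi-square per degree of freedom 1.71 to 10.8 over 24 pairs).

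The main test was limma 3.58.1 (R 4.3.3) with a mean trend on log2(normalized count + 1), over genes with a mean of at least 10, with Benjamini-Hochberg adjustment over all 13765 and a threshold of 0.05, two-sided. Responses to the inhibitor and their difference were fitted over all 16 libraries, and medium against high MYC with the inhibitor over those 8 libraries alone. Levels relative to MYC were compared by exact permutation. The fit was tested on simulated counts for the 13765 genes. For the inhibitor at high MYC it recovered 69.7% of 66 genes changed by 0.5 (log2) and 88.1% of 67 changed by 1. For the difference in response these shares were 43.9% and 79.1%. Recovery at the levels and spread of CAMKV, NPW, BZW2 and TERT was not tested. Their SE ran from 0.14 to 0.29 for the response at high MYC and from 0.19 to 0.42 for the difference.

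The 4 genes and all lists were chosen with earlier results of these data known. Besides them, genes were named by rule: up to 3 called genes with the largest rise and fall per list and comparison, paralogs of the 4 genes, the next 6 genes by difference in the controls with a mean of at least 50, and the 3 nearest patterns of each gene. Not every gene so chosen is named. Of the list of B cell markers, 1 item is not reported here. Symbols matched 56948 identifiers, and 57447 were found in GENCODE 29. Alternatives were other pseudocounts, filters and scalings, no mean trend, other sets of libraries in the fit, replicate blocks, count tests of the recovered reads with edgeR 4.0.16 or DESeq2 1.42.0, and leaving out each library.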

Additional observations from a re-analysis of the deposited data

Results flagged for a closer look

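In 2 of the 20 groups of 4 libraries examined for the 4 genes and MYC, 1 library stood apart from the other 3, and chance alone marks about 1 in 20 groups. TERT had 27.1 normalized counts in the first medium MYC control, while the other 3 measured 16.6 to 17.2. BZW2 had 14.1 normalized counts in the fourth medium MYC library with the inhibitor, while the other 3 measured 9.93 to 10.5. Both groups have few reads per library: 26 reads lay behind the TERT value and 14 behind that of BZW2.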

How the results depend on the processing

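Of 711 alternative values for 38 results, 690 kept their direction and side of the threshold, or, where no test applied, moved by less than the SD between replicates or, for counts of called genes, by under 1.5 times. For the levels relative to MYC, tests with a library left out or with the replicate block could not pass. Their smallest possible exact p lies above 0.05, so that they stayed on their side of the threshold carries no weight. With a pseudocount of 10, the levels relative to MYC passed the threshold (adjusted exact permutation p = 0.0381) at high MYC for BZW2 (-0.56), CAMKV (-0.64), NPW (-0.72) and TERT (-0.68), and at medium MYC for BZW2 (-0.55) and NPW (-0.40). The values at high MYC hardly moved, and the adjusted p there also depends on the other tests among the 8. At medium MYC, NPW had 2.33 to 8.94 normalized counts and BZW2 9.39 to 15.8. Adding 10 by construction shrinks the part of such low genes in the level relative to MYC, so the passes at medium MYC say little about the genes themselves. The differences in the controls moved to -3.93 for BZW2, -5.22 for CAMKV, -3.58 for NPW and -4.11 for TERT with that pseudocount, which by construction shrinks low genes. With quantile normalization they moved to -4.94 for BZW2, -6.16 for CAMKV, -6.03 for NPW and -4.85 for MYC, and the cause was not tested.

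Leaving out each library in turn, the response at high MYC ran from -0.25 to 0.031 for NPW, whose sign turned without the first high MYC control (limma adjusted p = 0.964). At medium MYC it ran from -0.15 to 0.095 for BZW2, which turned to 0.095 without the third control and to 0.0051 without the second inhibitor library. It ran from 0.031 to 0.40 for CAMKV and from 0.13 to 0.38 for TERT. The difference in response of BZW2 ran from -0.066, without the third medium MYC control, to 0.18. The level of NPW relative to MYC at medium MYC ran from -0.50 to 0.013, its value without the first inhibitor library. NPW has a mean under 100, so a filter there gave no value for it.

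Libraries with the same replicate number showed little correlation of their deviations on average (means between -0.0715 and 0.0243). Single pairs ran from -0.154 to 0.239, the highest being replicate 4 of the high and medium MYC controls. Whether the numbers mark shared cultures cannot be told from these values. With a replicate block, 3496 genes were called at high MYC, 3442 at medium MYC and 1026 for the difference in response, against 3689, 3618 and 1188 without it. The block changed no call of the 4 genes. Relative to MYC, the sign-flip test over numbered pairs cannot go below an exact p of 0.125. Depth limits the medium MYC values, which rest on 2 to 26 reads per library.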
